A study of Mus musculus with 4 samples.

Results

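Cytochrome P450 genes were followed across 4 arrays of mouse dorsal skin. Members were all probes whose platform annotation gives a symbol of the form Cyp, family number, subfamily letter and member number, which took 123 probes and 81 genes out of 45281 probes and 19057 named genes. The groups were skin of mice injected with IL-17A mini-circle DNA and given IMQ, skin of mice injected with GFP mini-circle DNA and given IMQ, skin of mice injected with IL-17A mini-circle DNA, and skin of mice injected with GFP mini-circle DNA. They are called IL-17A + IMQ, GFP + IMQ, IL-17A and GFP skin below. All were C57BL/6J mice of 8 to 12 weeks, all received a mini-circle (a small circular expression DNA), and each group was 1 array of RNA pooled from 6 mice. The labels give neither the promoter that drives the insert nor the dose or timing of IMQ, which commonly stands for imiquimod, an activator of Toll-like receptors that is applied to mouse skin to inflame it. With 1 array a group, no test was possible and no p-value or standard error is given. A difference below is between 2 pooled arrays, and the spread between mice cannot be seen.

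Cytochrome P450 enzymes are haem proteins that insert an oxygen atom into a substrate, using electrons passed on by a reductase partner. Families are numbered by sequence similarity, and the lower-numbered ones include most enzymes that act on drugs and pollutants. Others make or break down steroids, bile acids, vitamin D, retinoic acid and fatty acids. In skin they are known for the acylceramides of the water barrier, for local control of retinoic acid and vitamin D, and for oxidising chemicals that reach the epidermis.

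The signal of a probe is the deposited linear intensity, in arbitrary units, with a background already subtracted. A probe was taken as above its limit when its signal exceeded what a share of 0.01 of the array's noise would reach, the noise being read from the values below 0. The limits were 11.8, 11.6, 12.6 and 12.7 in IL-17A + IMQ, GFP + IMQ, IL-17A and GFP skin. A gene was read from the probe with the highest mean among those above the limit on at least 1 array, and it counted as higher or lower at a 2-fold difference of the normalized values with the brighter array above its limit. Signals of different probes do not rank genes by abundance. On bulk skin, fewer cells of a type and less RNA per cell cannot be told apart. Of 9 epidermal markers read on the array, at least 8 were above the limit on every array. Of 8 hepatocyte markers, Alb, Apoa1, Fgb and Ahsg were not above it on any array. Ttr (48.1 to 96.7), Serpina1a and Hpx were above it on all 4 arrays, and Apoc3 on 3.

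Of the 81 P450 genes, 38 had a probe above the limit on at least 1 array, and 25 were above it on all 4. The 38 are 46.9% of the P450 genes, where 66.8% of all 19057 named genes had a probe above the limit. Family 2 had 16 of its 43 genes above the limit and family 4 had 9 of 13. Family 3 had 2 of 6, and family 11 all 3. Families 1, 7, 17, 20, 24, 26, 27 and 39 had 1 gene each. No gene (0) of families 8, 21 and 46 was above the limit. Subfamilies differed in how many members were above it. Of 13 Cyp2c genes only Cyp2c65 was above the limit, of 7 Cyp2j genes only Cyp2j9, and of 2 Cyp4a genes none (0). Above it were 3 of 8 Cyp2d, 2 of 6 Cyp3a, 2 of 3 Cyp2a, 4 of 5 Cyp2b and 7 of 8 Cyp4f genes, and the 1 Cyp2e gene. Near-identical relatives within the Cyp2a, Cyp2b, Cyp2c, Cyp2d, Cyp3a and Cyp11b groups may share a probe's signal, so these are probe signals and not settled assignments. The 13 genes above the limit on 1 to 3 arrays were Cyp11a1, Cyp11b1, Cyp24a1, Cyp2a4, Cyp2a5, Cyp2b13, Cyp2c65, Cyp2d10, Cyp2d40, Cyp2u1, Cyp4f15, Cyp4f17 and Cyp4f40. Their log2 values spanned at most 0.37 over the 4 arrays, with an offset of 50 that holds dim signals together. With no background correction, Cyp11b1 was at -3.58 for IL-17A over GFP and Cyp11a1 at -1.60 for IL-17A + IMQ over IL-17A, from signals at or under the limit on at least 1 side.

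**Figure D1:**
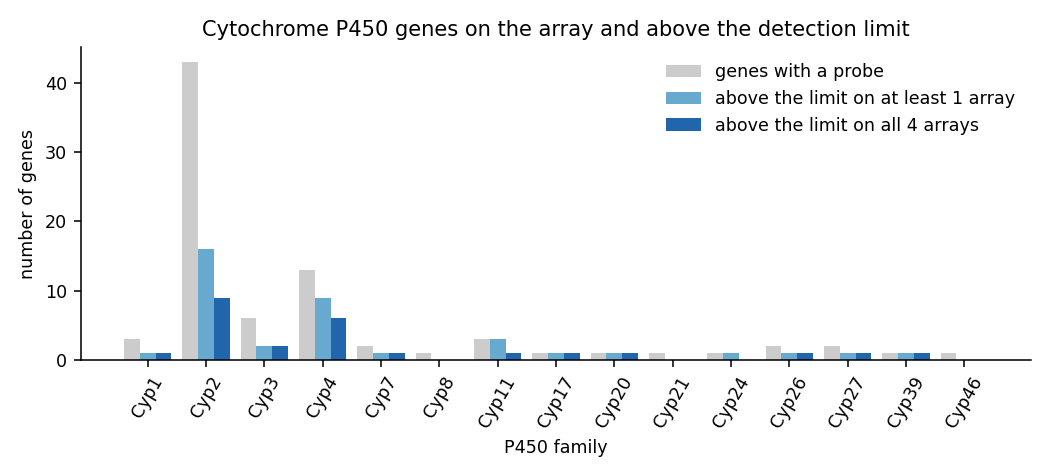
Bars give, for each P450 family (horizontal axis), the number of genes with a probe, the number above the detection limit on at least 1 array and the number above it on all 4 arrays. Family 2 holds 43 genes, of which 16 and 9 were above the limit, and family 4 holds 13, of which 9 and 6 were.

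Most P450 genes differed little between the 4 arrays. Those at least 2-fold apart in the comparisons below were Cyp2g1, Cyp17a1 and Cyp2f2, each towards lower signal. In IL-17A + IMQ skin set against GFP + IMQ skin, 2 of 38 P450 genes were at least 2-fold lower, Cyp2g1 and Cyp17a1, where 0.283% of all 12729 genes were. None (0) was at least 2-fold higher, where 1.06% of all genes were. In IL-17A skin set against GFP skin, 1 gene was at least 2-fold lower, Cyp2f2, beside 0.99% of all genes, and 0 were higher, beside 0.841%. In IL-17A + IMQ skin set against IL-17A skin, 1 was lower, Cyp2g1 again, beside 0.0786% of all genes, and 0 were higher, beside 0.165%. In GFP + IMQ skin set against GFP skin, 0 were higher and 0 lower, beside 0.416% and 0.283%. With counts of 0 to 2 genes these shares are descriptions of these arrays. The median log2 difference of the 38 genes was -0.08 for IL-17A + IMQ over GFP + IMQ, -0.05 for IL-17A over GFP, -0.05 for IL-17A + IMQ over IL-17A and 0.04 for GFP + IMQ over GFP. Over all genes those medians lay between -0.004 and 0.015. IL-17A + IMQ over GFP + IMQ and IL-17A over GFP share no array. The comparisons that share an array, such as IL-17A + IMQ over IL-17A with IL-17A + IMQ over GFP + IMQ, also share its chance values.

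At a 1.5-fold threshold, 4 P450 genes were lower and 1 was higher in IL-17A + IMQ than in GFP + IMQ skin, beside 1.87% and 2.52% of all genes. The 4 were Cyp17a1, Cyp27a1, Cyp2f2 and Cyp2g1, and the 1 was Cyp7b1. In IL-17A over GFP skin, Cyp2f2 and Cyp4v3 were lower and Cyp2s1 higher, beside 3.19% and 2.13% of all genes. In IL-17A + IMQ over IL-17A skin, Cyp17a1 and Cyp2g1 were lower and 0 higher, beside 0.212% and 0.966%. In GFP + IMQ over GFP skin, Cyp17a1 and Cyp2g1 were higher, and Cyp4v3 and Cyp7b1 lower, beside 1.55% and 2.06%. Of the 25 genes above the limit on all 4 arrays, 11 had their lowest value in IL-17A + IMQ skin, where 27.9% of all such genes did. Another count of 11 had their highest value in GFP + IMQ skin, where 23.0% of all such genes did.

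**Figure D2:**
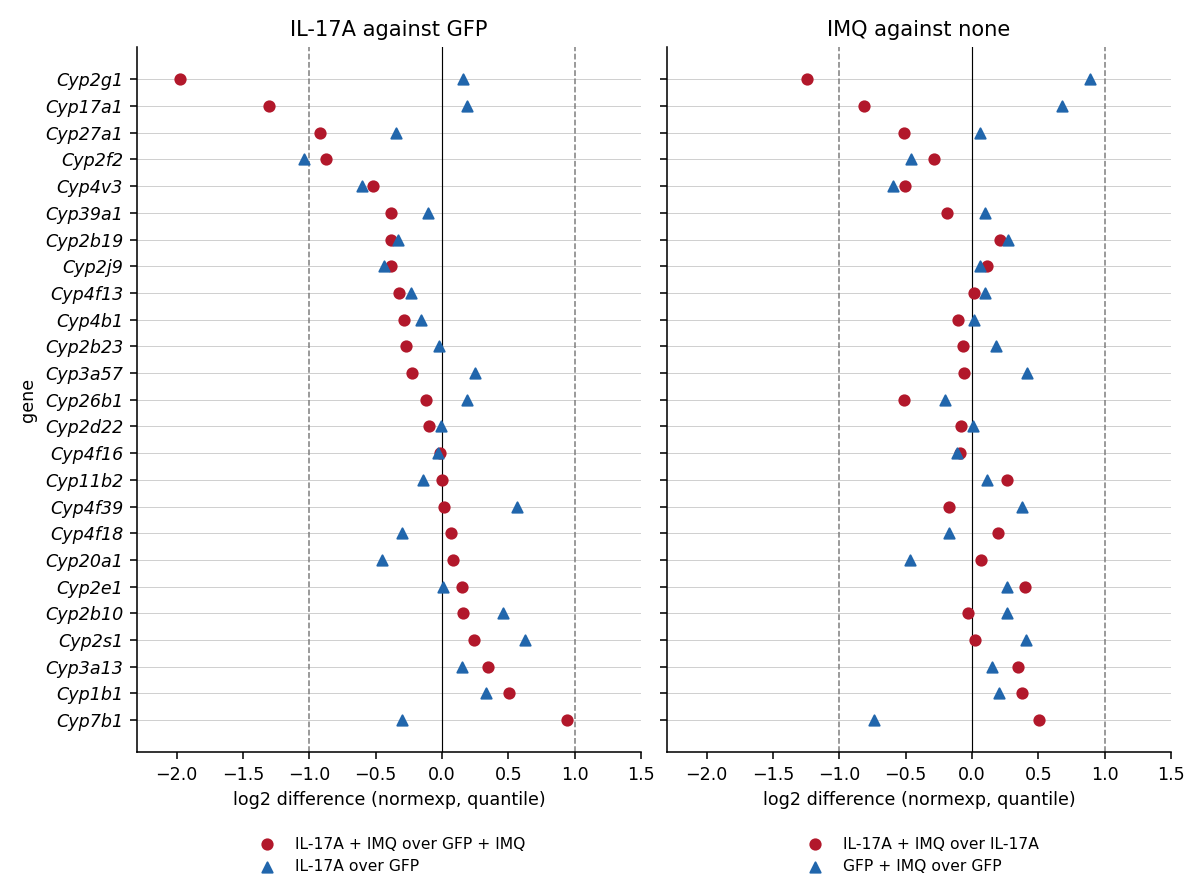
Points give the log2 difference (horizontal axis, normalized values) of the 25 P450 genes above the limit on all 4 arrays, for IL-17A against GFP skin on the left and IMQ against none on the right, with dashed lines at 2-fold. Cyp2g1 lies at -1.97 with IMQ and 0.16 without it on the left, and Cyp7b1 at 0.95 and -0.30.

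Cyp2g1 had the largest difference of any P450 gene. The enzyme was described in the olfactory mucosa of rabbit and rat, where it acts on steroid hormones. Its signal was 526 in IL-17A + IMQ, 2092 in GFP + IMQ, 1428 in IL-17A and 1263 in GFP skin. It was thus highest with IMQ in GFP skin and lowest with both treatments. IL-17A + IMQ skin was 3.93-fold lower than GFP + IMQ skin, a log2 difference of -1.97, which placed Cyp2g1 at rank 2 of 12729 genes from the lowest. Against IL-17A skin, IL-17A + IMQ skin was 2.37-fold lower, at rank 4 of all genes. GFP + IMQ skin was 1.85-fold higher than GFP skin, under the 2-fold threshold, and IL-17A over GFP skin was at 0.16. A second Cyp2g1 probe read 231 in IL-17A + IMQ, 1094 in GFP + IMQ, 596 in IL-17A and 718 in GFP skin. It gave -2.07 for IL-17A + IMQ over GFP + IMQ, -1.05 for IL-17A + IMQ over IL-17A and 0.74 for GFP + IMQ over GFP. Without IMQ the probes were of opposite sign, at 0.16 and -0.29. In the authors' deposited table of normalized log2 values, the brighter probe stood at 9.13 in IL-17A + IMQ, 11.16 in GFP + IMQ, 10.41 in IL-17A and 10.26 in GFP skin, and IL-17A + IMQ over GFP + IMQ was at -2.03.

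Cyp17a1, the hydroxylase and lyase on the route from pregnenolone to androgens, had the same order of arrays at the ends. Its probe read 155 in IL-17A + IMQ, 439 in GFP + IMQ, 347 in IL-17A and 289.6 in GFP skin. IL-17A + IMQ skin was 2.47-fold lower than GFP + IMQ skin, at rank 12 of all genes from the lowest, and 1.76-fold lower than IL-17A skin. GFP + IMQ skin was 1.60-fold higher than GFP skin. IL-17A over GFP skin without IMQ was at 0.19 on the log2 scale. The Cyp11 and Cyp21 genes of steroid synthesis gave little or no signal. Cyp11a1, which cuts the cholesterol side chain, read 7.23, 11.9, 23.3 and 13.8 in IL-17A + IMQ, GFP + IMQ, IL-17A and GFP skin, and its first value was below the limit. Cyp11b1 and Cyp11b2 make corticosterone and aldosterone. The Cyp11b2 probe read 39.0, 37.2, 23.1 and 33.6 in the same groups, and the Cyp11b1 probe was above the limit in GFP skin alone, at 12.8. The Cyp21a1 probes were not above it on any array. Of the steroidogenic cell markers, Star, Hsd3b1, Hsd17b3 and Nr5a1 were not above the limit, and the marker that was summed to at most 18.7.

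Cyp7b1 went the other way. It encodes an oxysterol hydroxylase that also acts on dehydroepiandrosterone. Its signal was 474 in IL-17A + IMQ, 200.2 in GFP + IMQ, 341 in IL-17A and 425 in GFP skin, so GFP + IMQ skin was the low array. IL-17A + IMQ skin was 1.93-fold higher than GFP + IMQ skin, a log2 difference of 0.95 that lay just under the threshold. It was 1.08 in the authors' deposited table. IL-17A over GFP skin without IMQ was at -0.30. GFP + IMQ skin was 1.67-fold lower than GFP skin, and IL-17A + IMQ skin 1.42-fold higher than IL-17A skin. Its relative Cyp7a1, the first enzyme of bile acid synthesis in liver, was not above the limit. Cyp39a1, another oxysterol hydroxylase, read 19.2 in IL-17A + IMQ, 42.6 in GFP + IMQ, 32.0 in IL-17A and 40.6 in GFP skin. This probe stayed within 0.39 on the log2 scale. A second Cyp39a1 probe read 22.3, 29.5, 13.4 and 15.7 in the same groups. For IL-17A + IMQ over IL-17A the probes were of opposite sign, at -0.19 and 0.17.

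The difference of differences compares the IL-17A difference under IMQ with that without IMQ. It was -2.13 for Cyp2g1, -1.49 for Cyp17a1 and 1.25 for Cyp7b1 on the log2 scale. These were the 3 P450 genes past 1 on either side, where 0.44% of all genes lay below -1 and 0.683% above 1. It rests on 1 array in each of 4 groups and was not tested. For Cyp27a1 it was -0.58 and for Cyp4f39 -0.55. For Cyp2f2 and Cyp4v3 it was 0.17 and 0.09, so their IL-17A differences were nearly alike with and without IMQ.

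**Figure D3:**
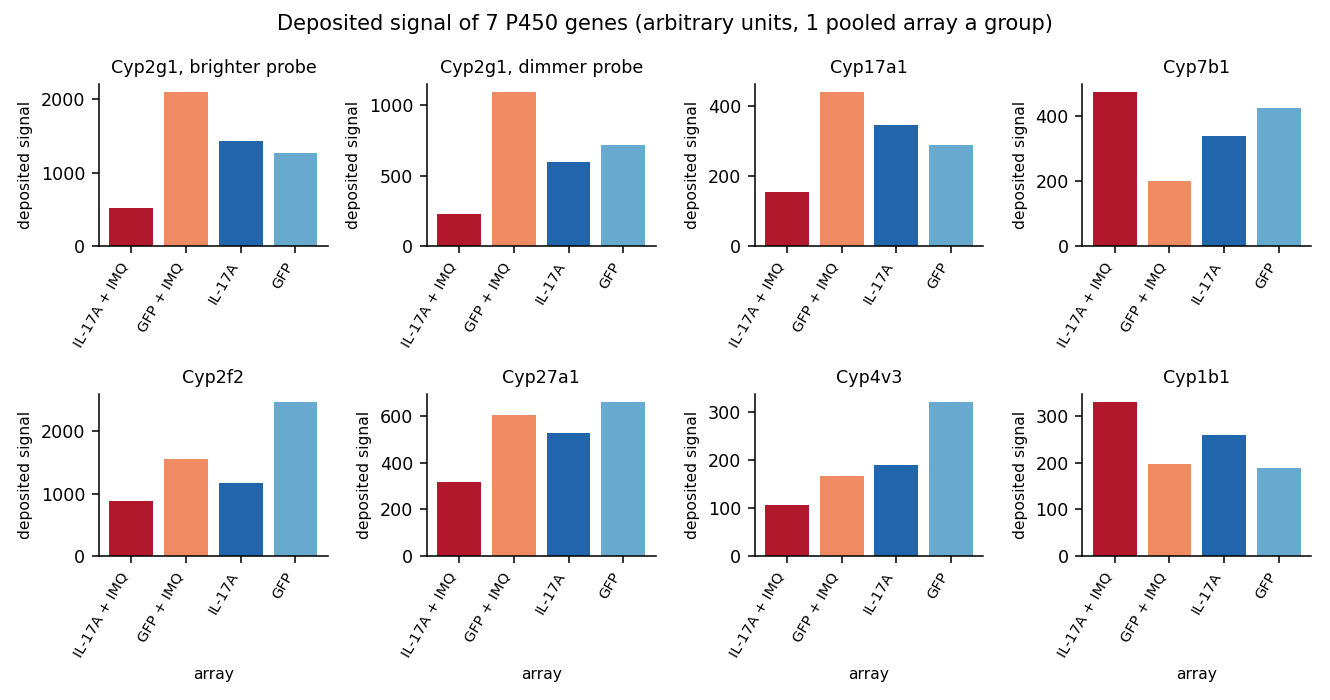
Bars give the deposited signal (vertical axis, arbitrary units from 0) of 7 P450 genes on the IL-17A + IMQ, GFP + IMQ, IL-17A and GFP arrays, with both probes of Cyp2g1. Both Cyp2g1 probes and Cyp17a1 are lowest in IL-17A + IMQ and highest in GFP + IMQ skin, Cyp7b1 is lowest in GFP + IMQ skin, and Cyp2f2 and Cyp4v3 are lowest in IL-17A + IMQ and highest in GFP skin.

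Cyp2f2, Cyp27a1 and Cyp4v3 were lower with IL-17A both under IMQ and without it. So were the brightest probes of Cyp2b19, Cyp2j9, Cyp4f13 and Cyp4b1 among others, with smaller differences under IMQ. Cyp2f2, known for its level in club cells of the mouse lung and for activating naphthalene there, read 875 in IL-17A + IMQ, 1549 in GFP + IMQ, 1178 in IL-17A and 2471 in GFP skin. GFP skin was the high array. IL-17A skin was 2.05-fold lower than GFP skin, and IL-17A + IMQ skin 1.83-fold lower than GFP + IMQ skin. IMQ differences were smaller, at -0.29 for IL-17A + IMQ over IL-17A and -0.46 for GFP + IMQ over GFP. With both treatments, Cyp2f2 was 2.51-fold lower than with neither.

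Cyp27a1 encodes a mitochondrial sterol hydroxylase, present in macrophages among other cells, that acts on the cholesterol side chain and on vitamin D. It read 319 in IL-17A + IMQ, 605 in GFP + IMQ, 525 in IL-17A and 659.6 in GFP skin. IL-17A + IMQ skin was the low array, 1.89-fold lower than GFP + IMQ skin and 1.43-fold lower than IL-17A skin. Its 3 probes gave -0.92 to -0.69 for IL-17A + IMQ over GFP + IMQ and -0.43 to -0.34 for IL-17A over GFP. For GFP + IMQ over GFP they ran from -0.09 to 0.06.

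Cyp4v3, the mouse counterpart of human CYP4V2, a fatty acid hydroxylase, read 105 in IL-17A + IMQ, 165 in GFP + IMQ, 189 in IL-17A and 320.0 in GFP skin. Each treatment alone and both together lay below GFP skin. The 4 log2 differences were -0.52 for IL-17A + IMQ over GFP + IMQ, -0.61 for IL-17A over GFP, -0.51 for IL-17A + IMQ over IL-17A and -0.59 for GFP + IMQ over GFP. None of them reached 2-fold, while both treatments over neither came to 2.16-fold lower.

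Markers of 2 other skin cell types differed in some of the same comparisons. All 9 macrophage markers read on the array were lower with IL-17A under IMQ and without it. Their summed signal was 8976 in IL-17A + IMQ, 13421 in GFP + IMQ, 10113 in IL-17A and 25999.7 in GFP skin. Their median log2 difference was -0.60 for IL-17A + IMQ over GFP + IMQ, -1.33 for IL-17A over GFP and -0.67 for GFP + IMQ over GFP, where Cyp27a1 was at 0.06. Of 8 fibroblast markers, 5 were lower with IL-17A under IMQ and 7 without it, and the summed signals were 21712, 21725, 21643 and 32207 in IL-17A + IMQ, GFP + IMQ, IL-17A and GFP skin. Their medians were -0.03, -0.72 and -0.56 in the same 3 comparisons. For IL-17A + IMQ over GFP + IMQ, single fibroblast markers ran from -0.88 for Ogn to 0.31 for Fbln1. Cyp2f2, Cyp27a1 and Cyp4v3 were at -0.87, -0.92 and -0.52 in that comparison. Every marker of both lists was above the limit on every array. The part of either cell type in the P450 differences was not tested.

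RefSeq promoters (GRCm38.p6) were held for 28 of the 38 P450 genes above the limit. The 250 bases before the start are shown for Cyp2f2, Cyp27a1 and Cyp4v3, just described, and for Cyp1b1, a target of the dioxin receptor. Capitals mark matches, on either strand, to the dioxin receptor core GCGTG or the nuclear receptor half-site AGGTCA. The search also covered the TATA box TATAAA.
Cyp2f2, chr7:27119705-27119954, + strand: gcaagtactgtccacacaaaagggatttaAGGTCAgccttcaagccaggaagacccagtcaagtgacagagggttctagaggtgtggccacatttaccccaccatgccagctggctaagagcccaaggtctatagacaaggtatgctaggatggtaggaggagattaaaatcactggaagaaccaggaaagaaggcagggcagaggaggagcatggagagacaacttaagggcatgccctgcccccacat
Cyp27a1, chr1:74713285-74713534, + strand: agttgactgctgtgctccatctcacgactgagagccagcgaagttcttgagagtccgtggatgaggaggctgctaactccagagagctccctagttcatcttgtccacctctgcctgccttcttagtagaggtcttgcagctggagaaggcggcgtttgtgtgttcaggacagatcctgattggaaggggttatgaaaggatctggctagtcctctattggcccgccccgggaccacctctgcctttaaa
Cyp4v3, chr8:45333164-45333413, - strand: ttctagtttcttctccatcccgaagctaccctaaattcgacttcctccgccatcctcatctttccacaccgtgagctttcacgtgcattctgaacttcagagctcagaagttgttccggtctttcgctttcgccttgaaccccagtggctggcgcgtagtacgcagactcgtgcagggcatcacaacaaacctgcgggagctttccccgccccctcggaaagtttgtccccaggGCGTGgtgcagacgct
Cyp1b1, chr17:79715062-79715311, - strand: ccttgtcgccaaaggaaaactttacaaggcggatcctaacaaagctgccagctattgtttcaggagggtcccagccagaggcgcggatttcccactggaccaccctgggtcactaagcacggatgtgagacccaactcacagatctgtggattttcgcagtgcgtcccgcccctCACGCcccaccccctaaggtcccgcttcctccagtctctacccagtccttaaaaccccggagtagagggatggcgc
Cyp2f2 held the half-site at position -221 from the start, Cyp4v3 the dioxin core at -16 and Cyp1b1 the dioxin core at -76, on the opposite strand. Cyp27a1 held none (0) of the 3 motifs. The dioxin core stood in 7 of the 28 P450 promoters and in 28.2% of 32851 mouse promoters, the half-site in 5 of 28 and 14.0%, and the TATA box in 7 of 28 and 12.4%. A match describes these letters and is no binding site.

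Among genes of the dioxin response, Cyp1b1, which oxidises estradiol and polycyclic hydrocarbons, was the family 1 gene above the limit. It read 329.8 in IL-17A + IMQ, 198 in GFP + IMQ, 258 in IL-17A and 187 in GFP skin. It was higher with IL-17A, at 1.42-fold under IMQ and 1.26-fold without it, and both treatments over neither came to 1.63-fold. No difference reached 2-fold. Cyp1a1 and Cyp1a2 were not above the limit on any array. Cyp2s1, an epithelial enzyme that human work links to retinoic acid, read 186 in IL-17A + IMQ, 138 in GFP + IMQ, 196 in IL-17A and 103 in GFP skin. GFP skin was its low array, with IL-17A over GFP at 1.54-fold and GFP + IMQ over GFP at 1.33-fold. The GFP array was also the low one for hair follicle markers. Of 14 read on the array, the 12 above the limit somewhere summed to 27653 in IL-17A + IMQ, 6939 in GFP + IMQ, 16959 in IL-17A and 92.5 in GFP skin, with all 12 above the limit on the first 3 arrays and 2 of them in GFP skin. Krt25 and Msx2 were below it on every array. Cyp1b1 had the same order of arrays as these sums, and Cyp2b10, Cyp3a13, Cyp3a57, Cyp4f39 and Cyp51 were also lowest in GFP skin. Cyp3a13 was so by a small margin, with 185 in GFP and 186 in GFP + IMQ skin. Among P450 genes above the limit on every array, 7 of 25 had their lowest normalized value in GFP skin. The share of all such genes was 31.7%, so being lowest there did not set P450 genes apart. The 7 include Cyp2e1, with IL-17A over GFP at 0.007, and not Cyp51, whose symbol lies outside the form used here. The part of hair follicle cells in the values of Cyp1b1, Cyp2b10, Cyp3a13, Cyp3a57, Cyp4f39, Cyp51 and Cyp2s1 was not tested.

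Cyp2e1, which oxidises ethanol, acetone and other small molecules, was not 2-fold apart in any comparison. Its largest difference was 0.40 for IL-17A + IMQ over IL-17A, at rank 311 of 12729 genes from the highest. Its signal was 4434 in IL-17A + IMQ, 3761 in GFP + IMQ, 3623 in IL-17A and 3721 in GFP skin, and its log2 values spanned 0.41. Among the Cyp2b genes, Cyp2b19 encodes a keratinocyte epoxygenase of arachidonic acid. It read 273 in IL-17A + IMQ, 347 in GFP + IMQ, 247 in IL-17A and 321 in GFP skin, so both IL-17A arrays lay below both GFP arrays. The differences were -0.38 under IMQ and -0.33 without it. A dim second Cyp2b19 probe, above the limit on 2 arrays, was at 0.02 in both comparisons. The probe named Cyp2b10, a phenobarbital-inducible gene, read 841, 685, 931 and 640.0 in the same groups, with both IL-17A arrays above both GFP arrays. Its differences were 0.16 under IMQ and 0.46 without it. Over the 4 arrays the brightest probe of Cyp2b23 stayed within 0.27, that of Cyp2d22 within 0.10 and that of Cyp2j9 within 0.50. The brightest probe of Cyp3a13 stayed within 0.50, that of Cyp3a57 within 0.41 and that of the orphan enzyme gene Cyp20a1 within 0.47.

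Fatty acid hydroxylases of family 4 were mostly even. Cyp4f39, the mouse counterpart of human CYP4F22, hydroxylates the very long fatty acids of acylceramides. It read 936 in IL-17A + IMQ, 860.1 in GFP + IMQ, 1153 in IL-17A and 733 in GFP skin. GFP skin was low, and the differences were 0.57 for IL-17A over GFP, 0.38 for GFP + IMQ over GFP and 0.01 for IL-17A + IMQ over GFP + IMQ. Of the other acylceramide genes, all 17 read on the array were above the limit on every array, with medians of 0.35 for IL-17A over GFP and 0.34 for GFP + IMQ over GFP, 0 of them at least 2-fold apart. For IL-17A over GFP, 2 of the 17 were below 0, Pnpla1 at -0.13 and Aloxe3 at -0.12. Fa2h, which adds the hydroxyl group of hydroxylated ceramides, was at 0.62 and 0.87 in those comparisons, and Ephx3, an epoxide hydrolase, at 0.57 and 0.74. Cyp4b1, which hydroxylates medium-chain fatty acids, read 309, 359, 368 and 405 in IL-17A + IMQ, GFP + IMQ, IL-17A and GFP skin. Cyp4f13 read 288, 349, 311 and 368 in the same groups. Both spanned at most 0.33 on the log2 scale. By their brightest probes, Cyp4f18, which inactivates leukotriene B4 in mouse neutrophils, spanned 0.30, and Cyp4f16 spanned 0.12. The 3 Cyp4f16 probes ran from -0.35 to -0.03 for IL-17A over GFP and from -0.34 to -0.11 for GFP + IMQ over GFP.

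**Figure D4:**
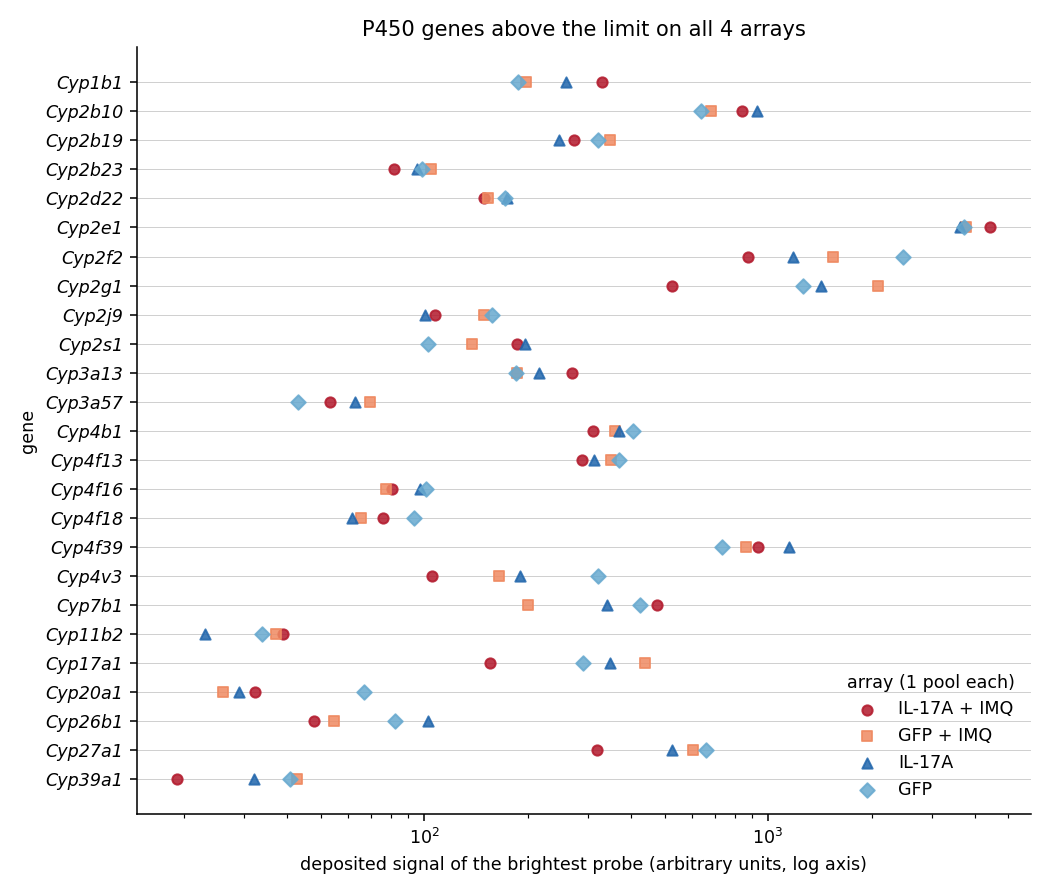
Points give the deposited signal (horizontal log axis, arbitrary units) of the 25 P450 genes above the limit on all 4 arrays, ordered by family from the top, with 1 symbol for each array. Signals of Cyp2e1 lie between 3623 and 4434, while Cyp2g1 runs from 526 to 2092 and Cyp2f2 from 875 to 2471.

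Genes that break down retinoic acid and make or degrade active vitamin D were not 2-fold apart. Cyp26b1, which degrades retinoic acid, read 47.9 in IL-17A + IMQ, 54.7 in GFP + IMQ, 102 in IL-17A and 82.4 in GFP skin. Both IMQ arrays lay below both arrays without it. The differences were -0.51 for IL-17A + IMQ over IL-17A and -0.20 for GFP + IMQ over GFP. Cyp26a1 was not above the limit. Cyp24a1, which degrades active vitamin D, read 15.1, 9.57, 13.1 and 21.4 in IL-17A + IMQ, GFP + IMQ, IL-17A and GFP skin, and was under the limit in GFP + IMQ skin. Cyp27b1, which makes active vitamin D, and Cyp2r1 were not above the limit. The vitamin D receptor gene Vdr read 838, 744, 813 and 517 in the same groups, with differences of 0.55 for IL-17A over GFP and 0.65 for GFP + IMQ over GFP.

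Partner and pathway genes were read from 9 lists holding 117 genes, of which 86 were above the limit on at least 1 array. At least 2-fold apart were 1 higher and 0 lower for IL-17A + IMQ over GFP + IMQ, 0 and 2 for IL-17A over GFP, 0 and 0 for IL-17A + IMQ over IL-17A, and 0 and 1 for GFP + IMQ over GFP. Over all genes the shares higher and lower were 1.06% and 0.283%, 0.841% and 0.99%, 0.165% and 0.0786%, and 0.416% and 0.283% in those comparisons, so counts this small among 86 genes are near them. The higher gene was Fabp5, a fatty acid and retinoic acid carrier, with 1434 in IL-17A + IMQ and 598 in GFP + IMQ skin, or 2.11-fold. Hmox1, which degrades haem, was 2.64-fold lower in IL-17A than in GFP skin. Alox5ap, the partner protein of arachidonate lipoxygenase in leukotriene synthesis, was 2.57-fold lower in the same comparison. Ltc4s, leukotriene C4 synthase, was 2.01-fold lower in GFP + IMQ than in GFP skin. The list of electron donors, haem supply and haem breakdown had 9 genes above the limit, and apart from Hmox1 the largest difference in it was 0.45, of Cyb5b. Of 20 listed receptors that regulate P450 genes, 19 were read on the array and 13 were above the limit, 0 of them 2-fold apart. The largest differences among the 13 were those of Vdr and Ppard (0.62 for IL-17A over GFP). The dioxin receptor gene Ahr was not above the limit on any array, nor were Nr1i2, Nr1h4, Ppara, Rara and Nr0b2. Of 10 steroid and cholesterol enzymes, 0 were 2-fold apart, with Akr1c18 at -0.79 for IL-17A over GFP. Among other targets of the dioxin receptor, Aldh3a1 was at -0.72 and Gsta1 at 0.58 for IL-17A + IMQ over GFP + IMQ. Of 8 such targets read, 7 were above the limit, 0 of them 2-fold apart, and Tiparp was not above it. The median of the 7 in that comparison was 0.24, with 3 of them below 0.

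P450 genes whose symbols lie outside the form used here were also read. Cyp51, the sterol demethylase of cholesterol synthesis, read 1312 in IL-17A + IMQ, 1269 in GFP + IMQ, 1151 in IL-17A and 983 in GFP skin. Tbxas1, thromboxane synthase, read 77.0, 70.6, 72.6 and 158 in the same groups, and Ptgis, prostacyclin synthase, 76.1, 77.5, 127 and 171. GFP skin was the low array for Cyp51 and the high array for Tbxas1 and Ptgis. The differences for IL-17A over GFP were 0.19, -0.70 and -0.31, and those for GFP + IMQ over GFP were 0.53, -0.62 and -0.62.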

How the data were processed

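Total RNA of dorsal skin was labelled with biotin, per the labels' protocols, and hybridised to Illumina bead arrays. The deposited intensity table gives 1 linear value per probe and array, with no detection p-value. Between 32.3% and 33.7% of values per array were below 0, so a background had been subtracted. The deposited log2 table holds the authors' normalized values, and their method is not given in the sources used here. Its columns ranked probes as their own array did (Spearman 0.9997 to 0.9999, at most 0.917 with another array). The intensities were corrected with limma 3.58.1 normexp (offset 50), quantile normalized and taken to log2 in R 4.3.3. Counts were made in Python 3.11.15 and the steps were tested on simulated data. The offset shrinks differences of dim genes. The number of arrays limits the precision. Probes were named from the platform annotation (1 symbol for 34885 probes, several for 18, none for 10378), and all 123 P450 probes matched RefSeq by Entrez identifier, with 0 symbols changed. Printed with values were genes at least 2-fold apart, the 12 with the highest mean and the 2 largest on each side of each comparison. So were members above the limit of families 1, 11, 24, 26 and 27, and Cyp2g1, Cyp2s1, Cyp2e1, Cyp4f39 and Cyp4b1. Up to 4 genes of each pathway list with the largest difference were printed too. Family 19 was also to be printed, but no member probe belonged to it. Cyp39a1 was added after its values were seen. Genes, lists and limits were chosen with earlier results of these data known. Alternatives were background, offset, scaling, the authors' values, probe choice, filters and fold thresholds.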

Additional observations from a re-analysis of the deposited data

Results flagged for a closer look

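Cyp2g1, Cyp17a1 and Cyp7b1 stood out because the IL-17A difference under IMQ and that without IMQ lay at least 1 apart on the log2 scale. For Cyp2g1 the difference was -1.97 under IMQ and 0.16 without it, which leaves -2.13 between them. For Cyp17a1 it was -1.30 under IMQ and 0.19 without it, which leaves -1.49. For Cyp7b1 it was 0.95 under IMQ and -0.30 without it, which leaves 1.25. None of these differences was tested, since each rests on 1 array in each of 4 groups. The second Cyp2g1 probe was at -2.07 under IMQ and -0.29 without it. Its signs were alike, where those of the brighter probe were opposite.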

How the results depend on the processing

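With 1 array a group, no result could be tested, no array could be left out of a group, and dim genes are limited by the background. No paired analysis was possible because each group has 1 array and the labels give no replicate numbers. Over 749 values of the 19 genes printed by rule, recomputed under 8 settings and with the second Cyp2g1 probe (added after seeing the data), 737 kept their side of the 2-fold threshold and 0 called values reversed or fell under it. Much of this was fixed in advance. The 3 filter settings change which probes are kept and not the value of a kept probe. They gave 95 values with no filter on dim probes, 95 with the limit at 0.05 of the noise and 80 with detection on all 4 arrays. The mean of a gene's probes can move only genes with more than 1 probe above the limit. Past 2-fold came 12 values, among them Cyp7b1 for IL-17A + IMQ over GFP + IMQ at 1.04 with an offset of 16, 1.02 with median scaling, 1.08 with the authors' values and 1.14 with no background correction, and Cyp27a1 at -1.05 in that comparison with no background correction. Cyp17a1 for IL-17A + IMQ over IL-17A was at -1.05 there. The other 6, and 3 values that shifted under 2-fold, were of the dim genes Cyp11a1, Cyp11b1 and Cyp24a1 with no background correction. Cyp2g1 ran from -2.10 to -1.88 for IL-17A + IMQ over GFP + IMQ, Cyp17a1 from -1.62 to -1.21, and Cyp2f2 from -1.08 to -1.01 for IL-17A over GFP. The counts below are in the order IL-17A + IMQ over GFP + IMQ, IL-17A over GFP, IL-17A + IMQ over IL-17A and GFP + IMQ over GFP. P450 genes higher were 0, 0, 0 and 0, and lower 2, 1, 1 and 0. With no background correction they were 2, 3, 0 and 2 higher and 4, 5, 6 and 4 lower, and 12 in place of 3 P450 genes had a difference of differences past 1. An offset of 16, median scaling and the authors' values each gave 1 P450 gene higher in the first comparison. At 1.5-fold there were 1, 1, 0 and 2 higher and 4, 2, 2 and 2 lower, and at 3-fold 1, 0, 0 and 0 lower, with 1 difference of differences. All genes higher were 135, 107, 21 and 53, and lower 36, 126, 10 and 36. With no background correction they were 760, 715, 476 and 608 higher and 620, 761, 440 and 652 lower. The authors' values gave 252, 237, 68 and 140 higher and 108, 256, 41 and 137 lower. An offset of 16 gave 33 and 82 higher in the last comparisons, and 65 and 81 lower in the first and last. Median scaling gave 48 higher and 72 lower in the last. The mean of a gene's probes gave 5 lower in the third. Detection on all 4 arrays gave 75, 54 and 14 higher in the first, second and last. At 1.5-fold there were 321, 271, 123 and 197 higher and 238, 406, 27 and 262 lower, and at 3-fold 66, 60, 2 and 32 higher and 3, 13, 0 and 3 lower. Looser fold thresholds add genes by construction, and with no background correction the offset of 50 gives way to a floor of 1. For other changes the cause was not tested.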

Other observations

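P450 genes lie in groups of neighbours on the GRCm38.p6 assembly. The counts of members above the limit are set beside 66.8% of all named genes, and differences between groups were not tested. On chromosome 7, 12 member genes stood in a row from Cyp2s1 to Cyp2t4, with at most 10 places between neighbours among protein-coding genes. Of these, 9 were above the limit on at least 1 array, among them Cyp2g1 and Cyp2f2. On chromosome 17, 6 of 7 genes from Cyp4f39 to Cyp4f13 were above it. On chromosome 19, 1 of 12 genes from Cyp2c55 to Cyp2c70 was, and on chromosome 4, 1 of 7 Cyp2j genes. Beside Cyp2g1, at -1.97 for IL-17A + IMQ over GFP + IMQ, Cyp2b19 differed by -0.38 and Cyp2b23 by -0.27. By its brightest probe, Cyp2b23 shared the highest array (GFP + IMQ) and the lowest (IL-17A + IMQ) of Cyp2g1, and Cyp2b19 only the highest. Dimmer second probes were at 0.10 for Cyp2b23 and 0.02 for Cyp2b19 in that comparison. In the same row Cyp2f2 was at -0.87, while Cyp2b10 and Cyp2s1 were higher, at 0.16 and 0.24. The Cyp2a5 probe was above the limit on 2 arrays only. Probes of near-identical relatives in one row may share signal, so these counts describe probes.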
